A study of Mus musculus with 23 samples.

Results

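The genes described here are 10 members of the switch that commits a cell to divide, out of 19938 gene symbols measured on the arrays: the D-type cyclins Ccnd1, Ccnd2 and Ccnd3, their kinases Cdk4 and Cdk6, the RB family Rb1, Rbl1 and Rbl2, and the inhibitors Cdkn1b and Cdkn2c. They were picked by symbol. All 10 were measured, all 10 passed the filter on low values, and each lay above the median of its array in all 23 samples. One probe set stands for each gene, and Cdkn1b has a second one that is given beside it.

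The mice carried 1 intact copy of Pax5 (Pax5+/-) or were wild type (WT). Pax5 encodes a transcription factor of B cell commitment. Every mouse, controls included, was kept in a specific pathogen-free area and received 2 Gy of radiation at 2 months of age, so no unirradiated group was used here. The groups were leukemic marrow of Pax5+/- mice (n = 10, samples 1 to 10) and of WT mice (n = 3, samples 14, 15 and 17), and cells of the preleukemic phase, a mix of proB and preB cells taken 3 weeks after the dose, of Pax5+/- mice (n = 7, samples 11 to 13 and 21 to 24) and WT mice (n = 3, samples 18 to 20). The leukemic samples are pro-B cells by their titles and leukemic bone marrow by their descriptions, and neither gives a sort, a sex or a strain. Leukemia and preleukemic cells therefore also differ in B cell stage, time after the dose and age, which cannot be told apart from leukemia.

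D-type cyclins are the regulatory partners of CDK4 and CDK6. The active kinases phosphorylate RB and its relatives p107 (Rbl1) and p130 (Rbl2), which otherwise hold E2F factors and keep genes of DNA replication silent. The protein p18INK4c (Cdkn2c) binds CDK4 and CDK6 and blocks them, while p27KIP1 (Cdkn1b) binds cyclin-CDK complexes, above all those of CDK2. In the marrow, cyclin D3 is known for its part in the expansion of pre-B cells.

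The median of an array was 6.06 to 6.2 (log2), and precision is limited by how many arrays there are. Of 10 measured B cell precursor markers, 8 to 10 lay above the array median in every sample of each group. Summed on the linear scale, they ran from 42800 to 47800 in Pax5+/- preleukemic cells and from 15800 to 33800 in Pax5+/- leukemias. In WT samples the sums were 39200 to 49300 before leukemia and 11000 to 26300 in leukemia. The samples nearest the opposite stage on the first principal component were Pax5+/- leukemia 7 and WT preleukemic sample 20, whose neutrophil marker mean was 10.72, the highest of its group. In WT mice Xist exceeded the Y-linked Eif2s3y in 3 of 3 leukemias and in 0 of 3 preleukemic samples. Sex and stage therefore cannot be told apart in WT mice. In Pax5+/- mice Xist was the higher in 5 of 10 leukemias and 3 of 7 preleukemic samples. The genotype comparisons and the interaction are therefore also uneven in sex.

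Promoter sequence was found in the RefSeq table (GRCm38.p6) for 7 of the 10 genes, in 9 windows, and 2 of them are shown, those of the kinase gene with the most E-boxes and of the one gene with E2F letters. The 250 bases before the start of Cdk4 (chr10:127063285-127063534, plus strand) hold the E-box CACGTG, the letters bound by MYC and its relatives, 4 times, in capitals. The 250 bases before the start of Rbl1 (chr2:157204535-157204784, minus strand) hold the E2F letters TTTCGCGC once, in capitals.
Cdk4: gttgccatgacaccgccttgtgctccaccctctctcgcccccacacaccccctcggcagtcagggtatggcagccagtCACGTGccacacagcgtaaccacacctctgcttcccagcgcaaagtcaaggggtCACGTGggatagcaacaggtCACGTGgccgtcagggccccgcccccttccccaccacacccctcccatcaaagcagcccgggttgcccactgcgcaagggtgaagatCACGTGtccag
Rbl1: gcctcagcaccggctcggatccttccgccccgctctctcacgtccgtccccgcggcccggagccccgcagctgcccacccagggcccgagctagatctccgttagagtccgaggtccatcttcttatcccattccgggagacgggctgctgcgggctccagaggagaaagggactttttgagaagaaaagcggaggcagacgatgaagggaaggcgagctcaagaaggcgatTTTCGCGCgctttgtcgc

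Of 32851 such windows, which include several per gene for some genes, 6.02% hold CACGTG at least once and 7 (0.0213%) hold it 4 times or more. The letters read the same on both strands. For E2F, the strings TTTCCCGC, TTTGGCGC, TTTCGCGC and TTTGCCGC were searched on both strands, and 1.86% of windows hold at least 1 of them. Cdk6 had 1 E-box, at position -220 from its start, and the other windows of these genes had neither motif. Other letters were searched too. TTTGAA (CHR, in 16.0% of all windows) was found in Rbl2, and GTAAACA (FOXO, 3.17%) in 1 Ccnd3 window. CCAAT (33.8%) was found in the other Ccnd3 window and 2 times in Cdkn1b. TTCNNNGAA (STAT5, 7.02%) was found in none of these genes. The motifs were picked after the sequences had been read, and a match is a description of letters, not a bound site.

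Of the D-type cyclins, Ccnd1 and Ccnd2 rose in Pax5+/- leukemia and Ccnd3 did not pass the test. Ccnd1, which encodes cyclin D1, had log2 levels of 6.81, 7.06 and 7.24 (lowest, median and highest) in the 7 Pax5+/- preleukemic samples. In the 10 leukemias it ran from 8.03 through a median of 10.92 to 12.49. Each leukemia lay above every preleukemic sample. The means were 10.92 ± 1.21 (SD, n = 10) and 7.04 ± 0.15 (SD, n = 7), a 14.8-fold rise (log2 difference 3.88, SE 0.48, limma adjusted p = 6.23e-07). An exact two-sided permutation test of the samples gave p = 5.14e-05, the smallest that 10 samples against 7 allow.

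Ccnd2, which encodes cyclin D2, ran from 8.12 through 8.51 to 8.93 in preleukemic cells and from 7.61 through 11.45 to 11.98 in the leukemias. The groups overlapped through 1 sample: 9 leukemias lay above every preleukemic value, and leukemia 7, at 7.61, lay below them all. The rise was 5.8-fold (log2 difference 2.54, SE 0.46, limma adjusted p = 7.11e-05, exact permutation p = 0.000977), and 2.92 on the log2 scale without leukemia 7.

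Ccnd3, which encodes cyclin D3, ran from 10.04 through 10.25 to 10.43 before leukemia and from 9.02 through 10.04 to 10.51 in leukemia. The leukemias reached both above and below the preleukemic range, with 1 above it, 5 below it and 4 inside it. The log2 difference was -0.24 (95% interval -0.59 to 0.10, limma adjusted p = 0.206). The SD was 0.45 in leukemia and 0.14 before it.

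Both kinases rose in every leukemia. Cdk4 ran from 11.19 through 11.58 to 11.76 in Pax5+/- preleukemic cells and from 12.18 through 12.37 to 12.56 in the leukemias, with no overlap. The difference was small and narrow, 1.81-fold (log2 difference 0.85, 95% interval 0.69 to 1.02, limma adjusted p = 1.69e-08). Among the 10 leukemias its SD was 0.13, the lowest of the 10 genes, beside 1.21 for Ccnd1 and 1.33 for Ccnd2.

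Cdk6 ran from 9.60 through 9.97 to 10.20 before leukemia and from 11.49 through 12.04 to 12.40 in leukemia. The groups lay far apart, with over 1 log2 unit between the highest preleukemic and the lowest leukemic sample. The rise was 4.18-fold (log2 difference 2.06, 95% interval 1.73 to 2.40, limma adjusted p = 1.06e-09). The exact permutation test, which uses the same difference of group means as the fit, gave p = 5.14e-05 for each kinase.

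**Figure D1:**
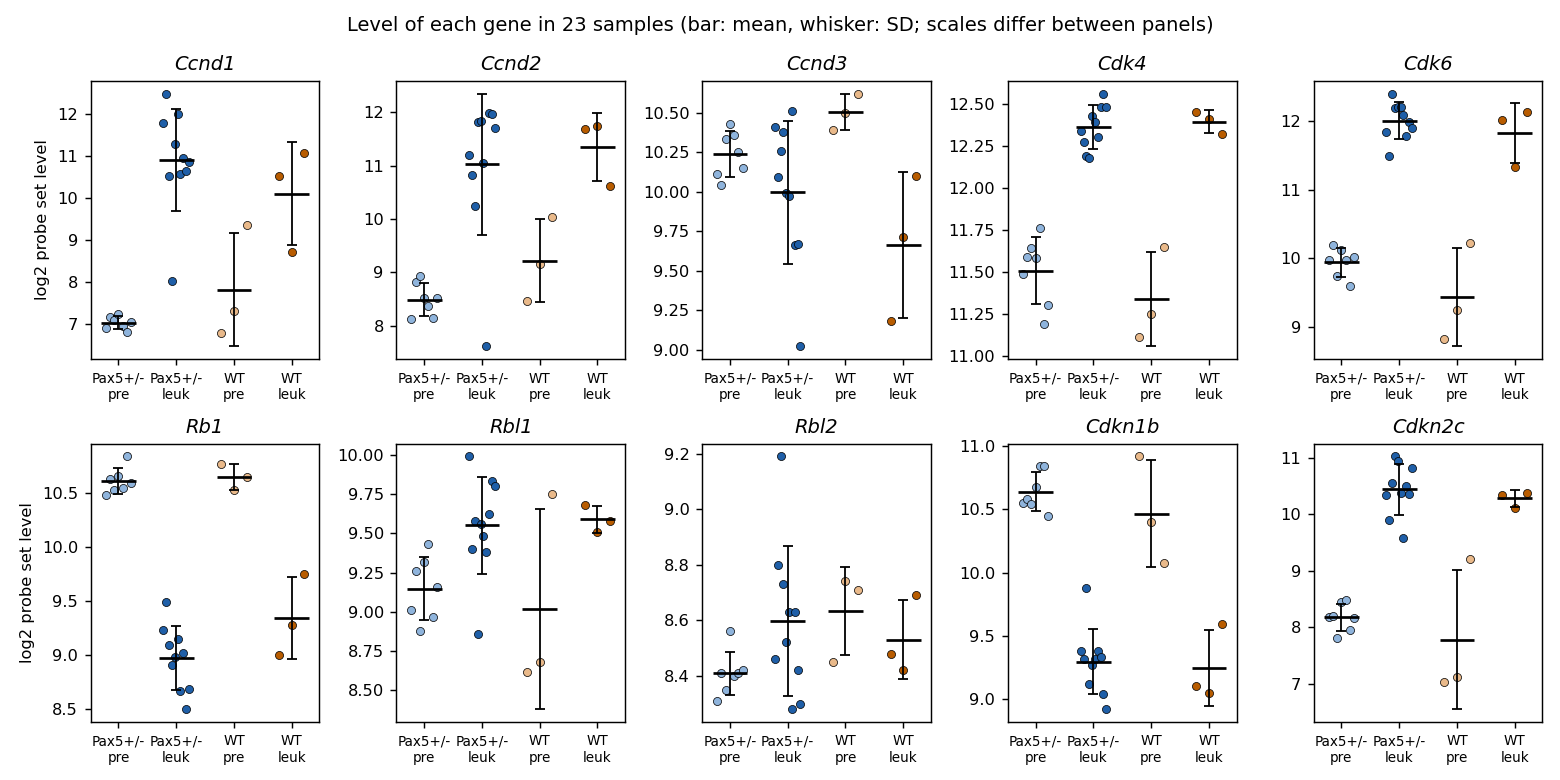
Log2 probe set level (vertical axes, scales differing between panels) of the 10 genes in the 4 groups (horizontal axis), with 1 point per sample, a bar at the mean and whiskers of 1 SD. Ccnd1, Cdk4, Cdk6 and Cdkn2c sit higher and Rb1 and Cdkn1b lower in all 10 Pax5+/- leukemias than in all 7 Pax5+/- preleukemic samples, while Ccnd2 has 1 leukemia at 7.61.

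The RB family split. Rb1, which encodes the retinoblastoma protein, ran from 10.48 through 10.59 to 10.84 in preleukemic cells and from 8.50 through 9.00 to 9.49 in leukemias, and each leukemia lay below every preleukemic sample. It fell 3.11-fold (log2 difference -1.64, SE 0.12, limma adjusted p = 3.09e-10). Rbl1 ran from 8.88 through 9.16 to 9.43 and from 8.86 through 9.57 to 9.99. Its groups overlapped, with 7 leukemias above the preleukemic range, 2 inside it and leukemia 4 below it. The rise was 1.32-fold (log2 difference 0.40, SE 0.15, limma adjusted p = 0.024, exact permutation p = 0.0107), and it did not pass without preleukemic sample 13 (adjusted p = 0.0549).

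Rbl2 ran from 8.31 through 8.41 to 8.56 before leukemia and from 8.28 through 8.58 to 9.19 in leukemia. The ranges overlapped, and the log2 difference of 0.19 (95% interval -0.02 to 0.39) did not pass (limma adjusted p = 0.101, and 0.0488 without leukemia 7). The difference of Rb1 was thus of opposite sign to that of Rbl1, and the interval of Rbl2 reached from below 0 to values above it.

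The inhibitors moved in opposite directions. Cdkn1b ran from 10.45 through 10.58 to 10.84 in preleukemic cells and from 8.92 through 9.32 to 9.88 in leukemias, without overlap. It fell 2.54-fold (log2 difference -1.34, SE 0.12, limma adjusted p = 9.48e-09). The second Cdkn1b probe set ran from 8.37 to 9.14 and from 7.17 to 7.54, a 2.61-fold fall (exact permutation p = 5.14e-05), so both probe sets of the gene fell.

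Cdkn2c ran from 7.81 through 8.18 to 8.48 before leukemia and from 9.57 through 10.44 to 11.02 in leukemia. All 10 leukemias lay above all 7 preleukemic samples. The rise was 4.8-fold (log2 difference 2.26, SE 0.25, limma adjusted p = 1.04e-07). An inhibitor of CDK4 and CDK6 thus rose in the same samples as both kinases, while the p27KIP1 gene fell.

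In all, 6 of the 10 genes rose and 2 fell in Pax5+/- leukemia. Of all 15542 genes tested, 64.6% passed this test, 28% higher and 36.5% lower, so a call as such was common. The values of the groups did not overlap for 6 of the 10 genes, 4 higher and 2 lower, beside 22.4% of all genes tested. The median log2 difference was 0.63 over the 10 genes and -0.05 over all genes tested.

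Markers of other cell types were higher in the same leukemias. In this comparison 8 of 9 monocyte and macrophage, 9 of 10 neutrophil, 5 of 5 megakaryocyte and 8 of 10 stroma and endothelium markers rose, and 1 stroma marker fell. Of the other lists, 2 of 4 plasmacytoid dendritic, 1 of 6 T cell and 1 of 6 NK cell markers rose, 2 of 5 plasma cell markers rose and 2 fell, and 1 of 7 erythroid markers rose and 1 fell. Of B cell markers, 6 of 10 precursor and 1 of 3 mature ones fell. The summed linear levels of the lists with most rises ran, in Pax5+/- preleukemic cells and then in Pax5+/- leukemias, from 803 to 1350 and from 2820 to 16000 for monocytes and macrophages. They were 874 to 1760 and 1120 to 26400 for neutrophils, 507 to 604 and 2390 to 15900 for megakaryocytes, and 2030 to 2280 and 2690 to 6560 for stroma. None of these markers is listed at 0, and the stromal marker Lepr lay below the 30th percentile of the array in every Pax5+/- preleukemic sample. In such mixed samples, more cells of a type and more RNA per cell cannot be told apart.

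With the first component of 58 markers of non-B cells as a covariate, 3621 of all 15542 genes tested passed, 2154 higher and 1467 lower. Of the 10 genes, 5 kept their direction and passed. These were Cdk4 (log2 difference 0.71, adjusted p = 0.00262), Cdk6 (1.83, adjusted p = 0.000339), Rb1 (-2.17, adjusted p = 2.29e-07), Cdkn1b (-1.22, adjusted p = 0.00108) and Cdkn2c (1.59, adjusted p = 0.0148). The log2 differences of Ccnd1 (1.23, adjusted p = 0.197) and Ccnd2 (1.59, adjusted p = 0.207) did not pass, and that of Rbl1 was -0.08 (adjusted p = 0.872), all from limma. The component ran from -2.63 to -1.99 in Pax5+/- preleukemic samples and from -0.33 to 3.34 in the leukemias, so it separated the stages by itself and its part cannot be told apart from that of the stage.

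For WT mice there were 3 leukemias and 3 preleukemic samples, for which no exact p can go below 0.1. Here 5 of the 10 genes rose and 3 fell, where 37.2% of all genes tested passed, 17.9% higher and 19.3% lower. The values did not overlap for 7 of the 10 genes, beside 44.4% of all genes tested. The median log2 difference was 0.82 over the 10 genes and -0.06 over all genes tested.

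Cdk4 was 12.45, 12.41 and 12.32 in WT leukemias and 11.11, 11.25 and 11.65 in WT preleukemic samples, a 2.08-fold rise (log2 difference 1.06, SE 0.14, limma adjusted p = 6.61e-06). Cdk6 was 12.02, 11.33 and 12.13 in leukemia and 8.83, 9.25 and 10.23 before it, a 5.24-fold rise (log2 difference 2.39, SE 0.27, limma adjusted p = 1.49e-06). Sample 20 held the highest preleukemic level of each kinase, and even there both lay below every WT leukemia.

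Cdkn2c was 10.34, 10.11 and 10.38 in WT leukemias and 7.03, 7.11 and 9.20 in WT preleukemic samples (5.64-fold, log2 difference 2.50, SE 0.41, limma adjusted p = 9.13e-05). Without sample 20 the log2 difference was 3.21. Rb1 was 9.00, 9.28 and 9.75 in leukemia and 10.77, 10.53 and 10.65 before it, a 2.47-fold fall (log2 difference -1.31, SE 0.20, limma adjusted p = 4.17e-05). Cdkn1b was 9.10, 9.05 and 9.59 in leukemia and 10.92, 10.40 and 10.08 before it, a 2.33-fold fall (log2 difference -1.22, SE 0.20, limma adjusted p = 0.000121). None of these 3 genes overlapped between the stages.

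The cyclins were less steady in WT. Ccnd1 was 10.54, 8.72 and 11.07 in leukemia and 6.80, 7.32 and 9.36 before it (4.87-fold, log2 difference 2.28, SE 0.79, limma adjusted p = 0.0284, exact permutation p = 0.2). WT leukemia 15 lay below preleukemic sample 20, so the stages overlapped. With 1 of the 23 samples left out, the log2 difference ran from 1.77 to 3.05 and the adjusted p from 0.00544 to 0.138, and the call was lost without sample 14, 17, 18 or 19.

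Ccnd2 was 11.68, 11.74 and 10.61 in WT leukemia and 8.47, 9.16 and 10.03 before it (4.36-fold, log2 difference 2.12, SE 0.76, limma adjusted p = 0.033). The stages did not overlap, but the call was lost without sample 14, 15, 18 or 19, with adjusted p up to 0.133. Ccnd3 was 9.18, 9.71 and 10.10 in WT leukemia and 10.39, 10.50 and 10.62 before it, a 1.79-fold fall (log2 difference -0.84, SE 0.28, limma adjusted p = 0.0221) that was lost without sample 14 (adjusted p = 0.133) or 19 (0.0586). With Xist as a covariate, Ccnd1 (adjusted p = 0.157) and Ccnd2 (0.0788) did not pass, and Ccnd3 did (0.0295).

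Rbl1 was 9.68, 9.51 and 9.58 in WT leukemia and 8.62, 8.68 and 9.75 before it, and its log2 difference of 0.57 did not pass (limma adjusted p = 0.0743). Without sample 20, the one preleukemic sample above every leukemia, it was 0.94 and passed (adjusted p = 0.00219). Rbl2 was 8.48, 8.42 and 8.69 in leukemia and 8.45, 8.74 and 8.71 before it, a log2 difference of -0.10 (95% interval -0.44 to 0.24, limma adjusted p = 0.634).

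Marker levels differed between the WT stages as well. In this comparison 5 of 9 monocyte and macrophage, 0 of 10 neutrophil, 5 of 5 megakaryocyte, 5 of 7 erythroid, 3 of 5 plasma cell and 7 of 10 stroma markers rose, and 1 plasma cell and 1 stroma marker fell. No T cell, NK cell or plasmacytoid dendritic marker passed, and 8 of 10 B cell precursor and 1 of 3 mature B cell markers fell. Summed levels ran, before leukemia and then in leukemia, from 1080 to 9140 and from 7680 to 9540 for monocytes and macrophages, and from 1180 to 25300 and 9870 to 17800 for neutrophils. They were 509 to 611 and 8100 to 11800 for megakaryocytes, 736 to 5020 and 764 to 9050 for erythroid cells, and 1820 to 2060 and 3680 to 4520 for stroma. With the marker component as a covariate, 2532 of all 15542 genes tested passed in WT mice, 1382 higher and 1150 lower. Among them were Cdk4, Cdk6, Rb1, Cdkn1b and Cdkn2c, as in Pax5+/- mice. Ccnd1 had a log2 difference of -0.37 (adjusted p = 0.806), Ccnd2 of 1.18 (0.501) and Ccnd3 of -0.85 (0.161).

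**Figure D2:**
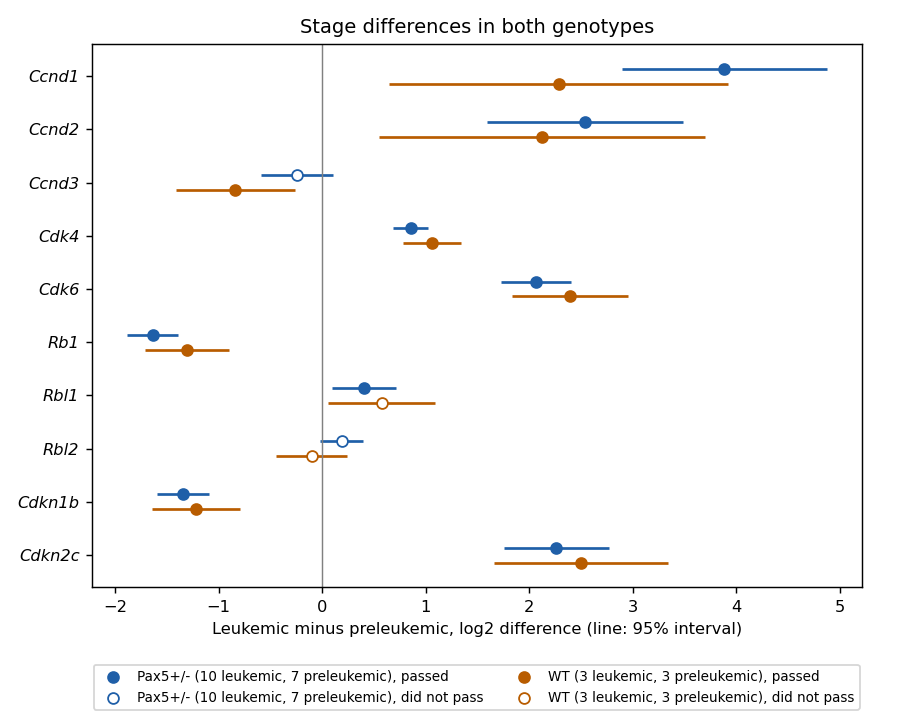
Leukemic minus preleukemic log2 difference (horizontal axis) of each gene in Pax5+/- and WT mice, with lines for the 95% interval from limma, filled points for an adjusted p under 0.05 and open points for the rest. The intervals of Ccnd1, Ccnd2, Cdk4, Cdk6, Rbl1 and Cdkn2c lie above 0 in both genotypes, although Rbl1 did not pass in WT mice. Those of Rb1 and Cdkn1b lie below 0 in both, and the WT intervals are wider.

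Whether the stage difference itself depended on genotype was tested with the interaction. None of the 10 genes passed, where 0.0965% of all genes tested passed at an adjusted p under 0.05. Of the 10, 0 reached an unadjusted p under 0.05, a threshold for which no share over all genes was computed. The size was greatest for Ccnd1, whose rise was 1.60 log2 units greater in Pax5+/- mice (95% interval -0.32 to 3.52, limma adjusted p = 0.777). With 1 sample left out, this value ran from 0.83, without WT sample 20, to 2.11, without WT sample 18. For Ccnd3, called lower in WT and not in Pax5+/- mice, the interaction was 0.60 (95% interval -0.07 to 1.27, limma adjusted p = 0.75). The intervals for Cdk4 (-0.53 to 0.13) and Rb1 (-0.81 to 0.15) were narrower and also held 0. The groups of WT samples are small, and these results do not show that the genotypes acted alike.

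Between the genotypes at the same stage no gene of the 10 passed limma's test, higher or lower. The genotype groups were uneven in sex by Xist and Eif2s3y, which limits these comparisons. Before leukemia 0.624% of all genes tested passed, 0.232% higher and 0.392% lower in Pax5+/- mice, and in leukemia 0.341%, 0.0257% higher and 0.315% lower. The values of the genotypes overlapped for all 10 genes at both stages. They did not overlap for 5.19% of all genes before leukemia (2.09% higher, 3.1% lower) and for 0.579% in leukemia (0.27% higher, 0.309% lower). At an unadjusted p under 0.05, for which no share over all genes was computed, 1 gene was found before leukemia. This was Cdk6, with 9.95 ± 0.21 (SD, n = 7) in Pax5+/- and 9.44 ± 0.72 (SD, n = 3) in WT cells. The log2 difference was 0.51 (limma adjusted p = 0.504), and 7 of 7 Pax5+/- values lay inside the WT range. Without WT sample 20 it was 0.91 and passed (adjusted p = 0.0403), as it did with array weights (0.91, adjusted p = 0.00502). Array weights also called Cdkn2c, with a log2 difference of 1.01 (adjusted p = 0.0194) in place of 0.39.

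By the exact permutation test, 2 of the 10 genes had a p under 0.05 before leukemia, without adjustment over the 40 tests of this kind. The share of all genes with such an exact p was not computed, so no background stands beside this count. Rbl2 was 8.41 ± 0.08 (SD, n = 7) in Pax5+/- and 8.63 ± 0.16 (SD, n = 3) in WT cells (exact p = 0.0167, limma adjusted p = 0.701). Ccnd3 was 10.24 ± 0.14 (SD, n = 7) and 10.50 ± 0.12 (SD, n = 3; exact p = 0.025, limma adjusted p = 0.854). For each, 6 of 7 Pax5+/- samples lay below every WT sample. Neutrophil marker sums were 874 to 1760 in Pax5+/- and 1180 to 25300 in WT preleukemic samples, the highest in sample 20 (marker means of 6.55, 6.61 and 10.72 in samples 18, 19 and 20). NK cell marker means were 7.05, 7.99 and 9.11 in the WT samples and 5.89 to 7.69 in Pax5+/- samples, although 0 of 6 markers passed. With the component of 58 non-B cell markers, these included, as a covariate, the log2 difference of Rbl2 was -0.164 in place of -0.225. That of Ccnd3 was -0.261 in place of -0.265, and neither passed limma's test. The part of neutrophil or NK cell markers on their own was not tested.

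In leukemia Rb1 had the smallest limma p, with 8.97 ± 0.29 (SD, n = 10) in Pax5+/- and 9.34 ± 0.38 (SD, n = 3) in WT samples (log2 difference -0.37, adjusted p = 0.744, exact permutation p = 0.0979). It was the only gene of the 10 with an unadjusted p under 0.05, and no exact p was under 0.05. Shares over all genes at these unadjusted thresholds were not computed. Ccnd1 differed by 0.81 (95% interval -0.51 to 2.13) and Ccnd2 by -0.32 (95% interval -1.59 to 0.94), intervals that reach beyond 2-fold on at least 1 side. That of Cdk4 was -0.26 to 0.20. Between the leukemias 4 of 7 erythroid markers were called lower in Pax5+/- mice, with summed levels of 427 to 777 beside 764 to 9050 in WT mice. Their part on their own was not tested. With the component of 58 non-B cell markers, these included, as a covariate, the log2 difference of Rb1 was -0.21 and that of Ccnd1 1.62. Those of Ccnd2 (-0.035) and Cdk4 (0.012) were small, and none of the 4 passed limma's test.

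The 10 Pax5+/- leukemias differed most from each other in Ccnd1 and Ccnd2. Leukemia 4 had the lowest Ccnd1, 8.03, with 2.49 log2 units to the next leukemia. Its Ccnd2 was 11.82 and its Cdkn2c 11.02, the highest of the group, while its Rbl1 of 8.86 was the lowest. Leukemia 7 had the lowest Ccnd2, 7.61, with 2.64 units to the next, and also the lowest Cdkn2c (9.57) and Rbl2 (8.28). Its Ccnd3 of 10.51 was the highest of the 10 and its Ccnd1 was 10.58. The other 8 leukemias had Ccnd1 of 10.52 to 12.49 and Ccnd2 of 10.25 to 11.98. The mean of 15 G2/M genes was lowest in leukemia 4 (9.01) and highest in leukemia 7 (10.03).

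Marker levels of these samples stood apart as well. Leukemia 4 had the highest megakaryocyte marker mean of the 10 (11.16) and the lowest neutrophil (6.30) and mature B cell means (5.98). Its monocyte and macrophage mean was 7.75, beside 7.48 in leukemia 9, the lowest. Leukemia 2, with the highest Ccnd1 (12.49), had the highest monocyte and macrophage (10.07) and stroma means (8.68). Leukemia 7 had the lowest T cell (5.56), erythroid (5.90), plasma cell (8.44) and plasmacytoid dendritic cell means (7.06) and the second highest B cell precursor mean (10.90). The part of these markers in the cyclin levels was not tested.

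**Figure D3:**
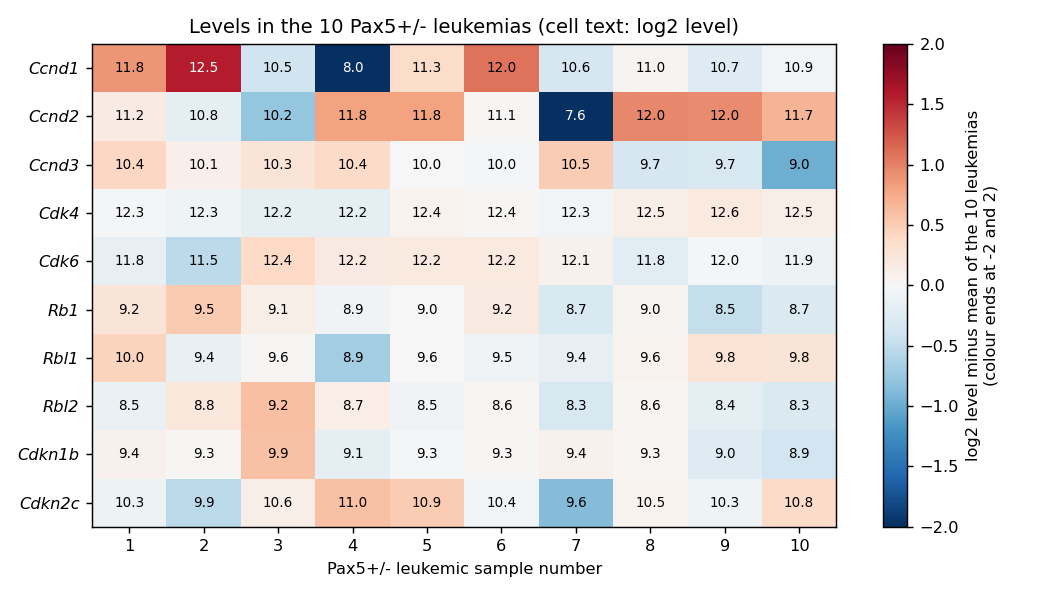
Levels of the 10 genes (rows) in the 10 Pax5+/- leukemias (columns), with the log2 level written in each cell and the colour giving its distance from the mean of the 10 leukemias, cut at -2 and 2. Leukemia 4 stands out for Ccnd1 (8.03) and leukemia 7 for Ccnd2 (7.61), while the Cdk4 row is nearly even.

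Correlations between the genes were computed within these 10 leukemias, over 45 pairs, and none passed after adjustment over the pairs. The smallest adjusted p was 0.272. Ccnd2 and Cdkn2c had a Pearson r of 0.76 (permutation p = 0.0121) and a Spearman rho of 0.48 (permutation p = 0.165), with r = 0.68 without samples 7 and 3. Ccnd3 and Cdk4 had r = -0.74 (permutation p = 0.0113) and rho = -0.77 (permutation p = 0.0124), with r = -0.85 without samples 10 and 7. Both pairs had an adjusted p of 0.272. With the mean of 15 G2/M genes, Rbl1 had the highest r, 0.67 (permutation p = 0.035, adjusted p = 0.35 over 10 genes), with rho = 0.48 (permutation p = 0.168) and r = 0.33 without samples 4 and 1. Rbl2 had the largest rho, -0.75 (permutation p = 0.0155, adjusted p = 0.155), with r = -0.50 (permutation p = 0.14, adjusted p = 0.427) and r = -0.67 without samples 3 and 7.

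The genes most like each of these genes were sought over all 23 arrays after each group had been centred on its own mean, as a description with no test. Rbl1 followed the replication ligase Lig1 (r = 0.96), Kntc1 (0.95) and the polymerase subunit Pola1 (0.95). Cdk4 followed the helicase subunit Mcm6 (0.87), Tipin (0.87) and Cnot9 (0.86). Ccnd2 followed the desaturase genes Fads3 (0.94) and Fads2 (0.93), and Sgk3 (0.91). Ccnd1 followed Raph1 (0.89), Sntb1 (0.84) and Ctnna1 (0.84). Ccnd3 followed Cdkn2d (0.84), which encodes the CDK4 and CDK6 inhibitor p19INK4d, Soga1 (0.79) and Tax1bp1 (0.77).

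Rb1 followed Mbnl1 (0.91), Ptger4 (0.88) and Dock8 (0.88). Cdkn2c followed Camk2g (0.89), Iqgap2 (0.86) and Atp8b4 (0.82), and Cdkn1b followed Sik1 (0.84), Jun (0.83) and Wac (0.83). Cdk6 followed Clip1 (0.85), Ptpn7 (0.85) and Arrb1 (0.80), and Rbl2 followed Ocrl (0.85), Selenon (0.85) and Foxj2 (0.83). The points share arrays and single samples such as 4, 7 and 20, so the values describe these samples.

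Other genes of the pathway were taken from lists, whose counts are to be read beside the 64.6% of all genes tested that passed in Pax5+/- mice (28% higher, 36.5% lower) and the 37.2% that passed in WT mice (17.9% higher, 19.3% lower). Among the other CDK inhibitors, Cdkn2d fell in both genotypes (log2 difference -0.50, limma adjusted p = 0.0121, in Pax5+/- and -0.72, adjusted p = 0.0451, in WT mice). Those of Cdkn1c, Cdkn2a and Cdkn2b lay between -0.20 and -0.02 and did not pass. The group means of these genes were 5.78 to 6.30, near the array medians of 6.06 to 6.2. At such levels a lack of change cannot be read from them. Cdkn1a, also listed, had no value here. Over the 4 genes the median difference was -0.08 with Pax5+/- and -0.18 with wild type.

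Of 6 cyclins E, A and B with CDK1 and CDK2, 5 rose in each genotype and 0 fell. The mitotic kinase gene Cdk1 had the largest rise, 1.57 in Pax5+/- and 1.80 in WT mice, and Ccne1, which encodes cyclin E1, rose by 0.73 and 1.12. Ccne2 did not pass in either genotype (-0.09 and 0.50). The medians were 0.65 and 0.84.

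The 17 genes of CDK activation and turnover held 11 rises and 5 falls in Pax5+/- mice and 9 rises and 2 falls in WT mice, with medians of 0.37 and 0.40. The phosphatase gene Cdc25b fell (-2.34 and -1.83), while its relatives Cdc25a (0.73 and 1.34) and Cdc25c (1.48 and 1.22) rose. Cks1b and Skp2, which encode parts of the ligase that marks p27KIP1 for breakdown, rose by 1.28 and 1.54 and by 0.61 and 0.70. Ambra1, whose protein directs the breakdown of D-type cyclins, fell (-0.33 and -0.53).

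Of 10 E2F and DP genes, 3 rose and 2 fell in Pax5+/- mice and 4 rose and 1 fell in WT mice, with medians of 0.07 and 0.46. E2f2 fell (-2.24 and -1.72), the partner gene Tfdp1 rose by 1.25 and 1.34, and E2f3 rose by 1.01 and 1.31. E2f1 did not pass in Pax5+/- mice (-0.06, adjusted p = 0.679) and rose by 0.58 in WT mice (adjusted p = 0.0245). With 5 of 10 called in each genotype, the list lay below the share of all genes in Pax5+/- mice and above it in WT mice.

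Of 7 genes of the MuvB core, which binds p130 and p107 in resting cells, and its partners, 3 rose and 2 fell in Pax5+/- mice (median 0.04) and 2 rose and 1 fell in WT mice (median 0.25). Lin37 fell (-0.40 and -0.32). The 5 of 7 and 3 of 7 called lay near the shares over all genes. Of 6 partners of the RB pocket, 2 rose and 3 fell in each genotype (medians -0.21 and -0.09). Arid4a (-0.48 and -0.53), Arid4b (-0.62 and -0.54) and the demethylase gene Kdm5a (-0.54 and -0.73) fell, and Rbbp7 rose by 0.71 and 0.76.

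Of 17 E2F targets of S phase, 14 rose in Pax5+/- and 16 in WT mice, and 0 fell in either. Thymidylate synthase Tyms rose by 1.68 and 1.87, thymidine kinase Tk1 by 1.19 and 1.32, and Mcm2 by 0.70 and 1.36. Rrm2 did not pass in either genotype (-0.25 and 0.49). The medians were 0.63 and 1.08.

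All 15 G2/M genes rose in Pax5+/- leukemia and 14 of 15 in WT leukemia, with medians of 1.31 and 1.26. Mki67 was the gene that did not pass in WT mice (0.72, adjusted p = 0.0688). The mean of the 15 ran from 7.97 through 8.33 to 8.58 in Pax5+/- preleukemic cells and from 9.01 through 9.68 to 10.03 in leukemias, without overlap. In WT preleukemic sample 20 it was 9.79, above the lowest WT leukemia at 9.60, and the other 2 WT preleukemic samples reached at most 7.86.

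Of 12 upstream transcription factors, 1 rose and 8 fell in Pax5+/- mice (median -0.58) and 2 rose and 6 fell in WT mice (median -0.55). Myc rose by 3.62 and 2.80. Foxo1, whose protein is a known activator of Cdkn1b, fell (-2.08 and -2.40), as did Irf4 (-2.91 and -2.70) and Ikzf3, which encodes Aiolos (-5.01 and -4.88). Stat5a and Stat5b did not pass in Pax5+/- mice (0.23 and 0.59), and in WT mice Stat5a passed (1.32, adjusted p = 0.0498). Between the genotypes at one stage, and in the interaction, 0 genes of these 9 lists passed.

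**Figure D4:**
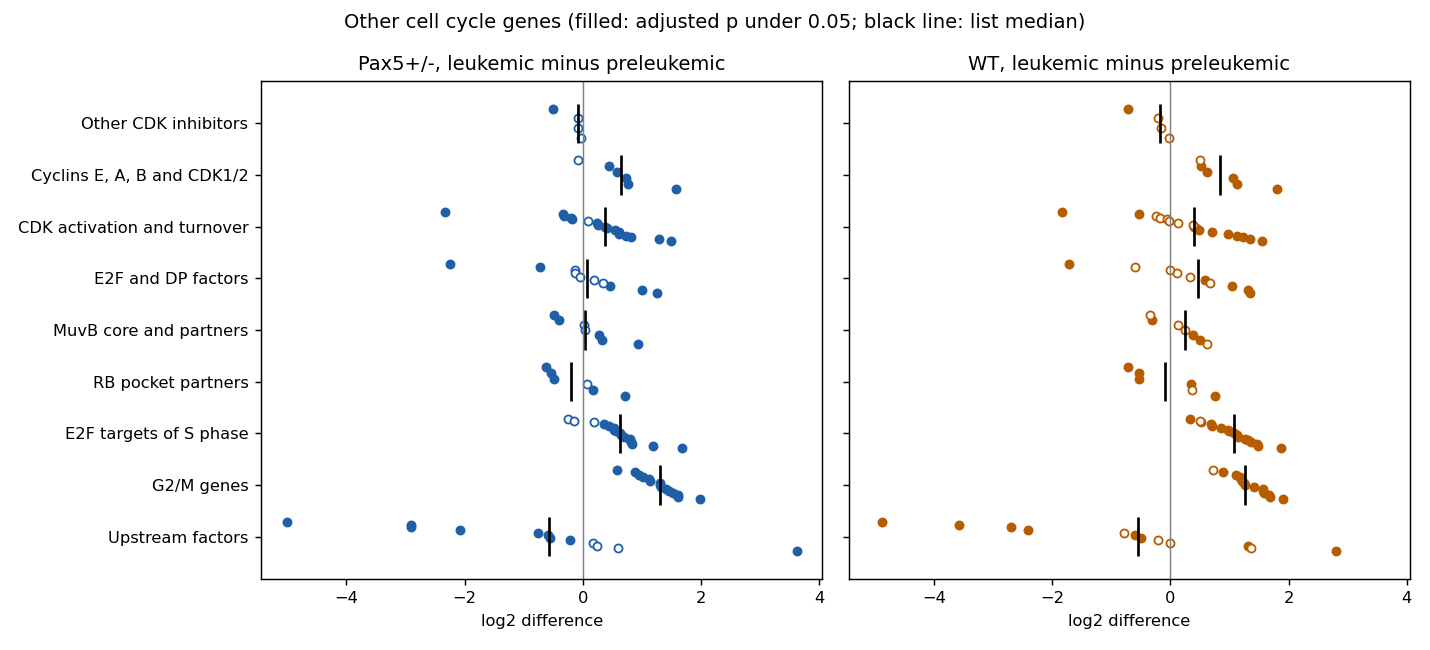
Leukemic minus preleukemic log2 difference (horizontal axis, same scale in both panels) of the genes in 9 cell cycle lists, in Pax5+/- and WT mice, with 1 point per gene, filled where the adjusted p was under 0.05, and a black line at the list median. The G2/M and S phase lists lie mostly to the right of 0, while E2F factors, activators and upstream factors have members on both sides.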

How the data were processed

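RNA of 23 mouse bone marrow samples was labelled for 1-colour arrays (WT Terminal Labeling Kit, per the labels' protocols). The authors deposited log2 signals per probe set, from 3.65 to 14.2. The submitters' processing notes name Transcriptome Analysis Console; background correction and normalization are not given in the sources used here. Of 28944 probe sets, 21789 carried 1 symbol, 1621 several and 5534 none. The single-symbol probe set of highest mean stood for each of 19938 symbols. Genes above the 30th percentile of their array on at least 3 arrays (15542) were tested.

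One limma model (version 3.58.1, R 4.3.3) held all 4 groups (eBayes with an intensity trend, two-sided, Benjamini-Hochberg over all genes tested, threshold 0.05). Fold is 2 raised to the log2 difference. Each of the 10 genes also had an exact permutation test over samples, two-sided, and correlations with 100000 permutations. Mouse numbers differ between the Pax5+/- samples; where nothing says that samples came from separate mice, p-values measure only the spread between samples. The fit was tested on simulated data. The genes and lists were chosen with earlier results of these data known. All 10 genes are named, with up to 4 passing genes of smallest p per list, or all of a list with 5 or fewer calls; of these some are given. Lists, each with its count in the text, are described by counts and medians. For likeness, the 3 genes of highest r were taken, predicted genes left out. Motifs, and list genes named outside that rule, were chosen after their values were seen. Alternatives changed the filter, the normalization, the probe set per symbol, the variance prior, array weights, the samples in the fit and the covariates, and left out each sample in turn. Figures were drawn with matplotlib 3.10.9.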

Additional observations from a re-analysis of the deposited data

Results flagged for a closer look

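Among the 20 sets of 7 or 10 samples examined, 3 had a sample whose gap to its nearest neighbour was large for its group's range. Chance gives about 1 in 20 for independent sets. These sets share the same arrays, so the count of 3 cannot be weighed against that rate. In Pax5+/- leukemia 4, Ccnd1 was 8.03, with a gap of 2.49 log2 units (0.558 of the range). In Pax5+/- leukemia 7, Ccnd2 was 7.61, with a gap of 2.64 units (0.604 of the range). In Pax5+/- leukemia 3, Cdkn1b was 9.88, with a gap of 0.50 units (0.521 of the range). Without these samples the log2 differences from Pax5+/- preleukemic cells were 4.21 for Ccnd1, 2.92 for Ccnd2 and -1.41 for Cdkn1b. The second Cdkn1b probe set was also highest in leukemia 3, at 7.54.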

How the results depend on the processing

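With the marker component as a covariate, the number of the 10 genes called was 5 in each genotype's stage comparison, in place of 8, and the called log2 differences of Rbl1 in Pax5+/- mice (-0.078) and Ccnd1 in WT mice (-0.367) changed sign; the cause was not tested. Differences that were not called also changed sign, those of Rbl2 in Pax5+/- mice (-0.011), Ccnd1 (0.023) and Rb1 (0.123) between the genotypes before leukemia, and Cdk4 (0.012) and Rbl1 (0.106) between the leukemias. With 1 sample left out, the number called ran from 7 to 9 in Pax5+/- mice, from 5 to 9 in WT mice and from 0 to 1 between the genotypes before leukemia, and was 0 between the leukemias and for the interaction. Before leukemia it was 2 with array weights and 1 without WT samples 15, 17 and 20 together, a choice made after seeing the data. Over all 15542 genes tested, 9718 were called in Pax5+/- mice without sample 13 (7 of the 10) and 10170 without sample 7 (9). The main fit called 10034. In WT mice 4262 were called without sample 14 (5 of the 10) and 5766 without Pax5+/- leukemia 4 (9), in place of 5780. Before leukemia 137 were called without WT sample 20 (1 of the 10), in place of 97. Array weights called 444 before leukemia. They called 127 between the leukemias and 82 for the interaction, in place of 53 and 15. Fits of only the groups compared called 3537 in WT mice, 231 before leukemia and 1 between the leukemias, in place of 5780, 97 and 53. The marker component called 3621, 2532 and 2 for the Pax5+/- stage, the WT stage and the leukemias, and Xist called 21 for the leukemias. Between the leukemias the count was 160, 0 and 5 without WT sample 14, 15 or 17, and before leukemia 40 without WT sample 19. For the WT stage it was 3828 and 3794 without WT sample 18 or 19. For the interaction it ran from 6 without WT sample 19 to 98 without WT sample 14. No pair of genes passed among the leukemias under quantile normalization or with 1 leukemia left out. A random block by the mouse number's first letter changed no call among the 10 genes. Samples without a lettered mouse number each formed a block of their own, so this fit cannot address shared origin among them. No paired analysis was made. Each sample number belongs to 1 sample only, so these numbers cannot show whether groups share mice. Signals over background, not depth, limit these arrays, and all 10 genes lay above every array's median.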
